A study of Mus musculus with 6 samples.

Results

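The hypoxia-inducible factor (HIF) pathway was followed through 9 genes in mouse heart. They were Hif1a, Epas1 and Hif3a for the α subunits, Arnt for the β subunit, and Egln1, Egln2, Egln3, Vhl and Hif1an for the proteins that set the level and activity of the α subunits. In build GRCm38 they lie on chromosomes 12, 17, 7, 3, 8, 7, 12, 6 and 19 in the order given, with Hif1a at chr12:73901324-73947554 on RefSeq coordinates. The genes were taken by name and not by a rule on measured values, though earlier results of these data were known. All 27 probe sets that carry 1 of these symbols alone were collected, and each gene was read from the brightest by its mean over the 6 arrays. All 9 passed the filter on dim probe sets, among 12946 genes tested, and so did 21 of the 27 probe sets.

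RNA came from 3 hearts labelled KO and null for estrogen-related receptor α (ERRα, encoded by Esrra), an orphan nuclear receptor of mitochondrial energy metabolism, and from 3 wild-type (WT) hearts. All mice were male and under basal conditions. The labels give the KO mice and WT 2 and 3 as C57BL/6J aged 2 to 3 months, and for WT 1 give neither. They do not describe the null allele or say whether litters were shared. There was 1 Affymetrix array a heart, so precision is set by 3 arrays in each group, whose spread may be partly technical.

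Esrra itself gave signals of 180.1, 24 and 18 in the hearts labelled KO 1 to 3, against 368.1, 394.4 and 349.1 in WT 1 to 3. KO 1 therefore kept 48.6% of the average WT signal, while KO 2 kept 6.48% and KO 3 kept 4.86%. The array labelled KO 1 goes against its label, so results that rest on it are also given without it. WT 1 was the brightest array, with a median signal of 16 against 12.4 to 13.7 on the other arrays. Cardiac myocyte markers were bright in every heart, and their summed signal over 8 genes was 58265 to 61653 in the hearts labelled KO and 61106 to 67621 in WT. In RNA from whole hearts, fewer cells of a type and less RNA per cell cannot be told apart.

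As background, a HIF is a pair of bHLH-PAS proteins, an α subunit that oxygen makes unstable and a β subunit that is always present. When oxygen is plentiful, the EGLN enzymes hydroxylate prolines of the α subunit, the VHL protein recognises the hydroxylated form, and its ubiquitin ligase marks it for destruction. HIF1AN hydroxylates an asparagine instead and blocks the coactivators EP300 and CREBBP. Stable HIF turns on genes of glycolysis, vessel growth and feedback, among them Egln1 and Egln3. Since oxygen acts on the α proteins, transcript levels do not measure HIF activity.

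The DNA letters that HIF recognises have the core ACGTG or GCGTG, and those of ERRα the element TNAAGGTCA, where N is any base. These letters were searched on both strands of the 250 bases before a transcript start, in RefSeq promoters of build GRCm38.p6, which hold 8 of the 9 genes in 9 promoters. The start used in that table is not always the outer end of the gene. The starts of Hif1a and Arnt and the inner start of Egln2 lie inside the gene span, so the Hif1a window printed here is that of an internal start. The HIF core occurred in 7 of these 9 promoters, against 38.6% of all 32851 promoters in the table. Egln2 is counted by both of its promoters, and Epas1 has no entry. The windows of the 9 promoters held 48% to 86% G and C, and both forms of the core contain CG. Enrichment was not tested. TNAAGGTCA occurred in none of the 9 promoters, nor did its shorter form AAGGTCA, against 1.14% and 4.08% of all promoters. A match is a description of letters and not a site, and a missing match says nothing about the factor. The promoters of Hif1a, Egln1, Egln3 and Cited2 are printed 5′ to 3′ on the strand of the gene, with the HIF core in capitals. The first had the smallest p of the 9 genes, the next 2 encode hydroxylases that HIF induces, and the last encodes a HIF feedback protein described further on.
Hif1a: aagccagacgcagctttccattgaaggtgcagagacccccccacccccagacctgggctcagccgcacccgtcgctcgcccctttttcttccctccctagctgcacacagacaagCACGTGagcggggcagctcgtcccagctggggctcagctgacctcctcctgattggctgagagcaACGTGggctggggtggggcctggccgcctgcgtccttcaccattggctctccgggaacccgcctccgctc
Egln1: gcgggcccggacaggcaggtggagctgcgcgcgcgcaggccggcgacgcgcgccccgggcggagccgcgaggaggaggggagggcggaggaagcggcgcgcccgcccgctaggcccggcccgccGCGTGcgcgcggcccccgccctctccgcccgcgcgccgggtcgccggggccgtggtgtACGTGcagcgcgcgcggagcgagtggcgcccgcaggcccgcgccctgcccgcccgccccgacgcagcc
Egln3: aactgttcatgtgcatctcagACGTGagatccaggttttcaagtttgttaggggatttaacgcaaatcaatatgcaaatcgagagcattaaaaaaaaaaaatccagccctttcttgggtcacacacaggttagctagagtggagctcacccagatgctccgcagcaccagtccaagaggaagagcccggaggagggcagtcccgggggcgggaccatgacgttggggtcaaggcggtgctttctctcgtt
Cited2: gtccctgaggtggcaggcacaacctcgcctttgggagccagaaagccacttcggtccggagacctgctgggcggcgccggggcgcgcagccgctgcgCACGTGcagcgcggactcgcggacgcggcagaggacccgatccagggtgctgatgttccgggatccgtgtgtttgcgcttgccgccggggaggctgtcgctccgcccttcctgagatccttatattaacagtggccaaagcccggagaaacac
They lie at chr12:73907617-73907866 on the plus strand for Hif1a, chr8:124949255-124949504 on the minus strand for Egln1, chr12:54203875-54204124 on the minus strand for Egln3, and chr10:17722978-17723227 on the plus strand for Cited2. Hif1a had 3 matches, of which a pair overlap as both strands of CACGTG, and the only matches of Cited2 are such a pair. Egln1 had 2 matches and Egln3 had 1.

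None of the 9 genes passed the test between the hearts labelled KO and WT. A two-sided limma test was run on log2(signal + 16), with p adjusted over all 12946 genes and a threshold of 0.05. The count was 0 higher and 0 lower, against 2.97% of all genes called. At an unadjusted p under 0.05 there was 1 gene of the 9, Hif1a, against 12.5% of all genes. The groups did not overlap for 1 gene, again Hif1a, against 16.2% of all genes. All hearts labelled KO lay below all WT hearts for 1 of the 9 (9.41% of all genes) and above them for 0 (6.81% of all genes). The differences were below 0 for 8 of the 9 genes, against 55% of all genes, with a median of -0.11 against -0.028. Without WT 1 they were below 0 for 6 of the 9, against 39.5% of all genes. In 21 of 22 other ways of processing the count of genes past the test was also 0. With quantile normalization, which gives all arrays the same distribution, it was 1, Hif1a, just past the threshold. Nothing particular to the 9 genes is read from that count.

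**Figure D1:**
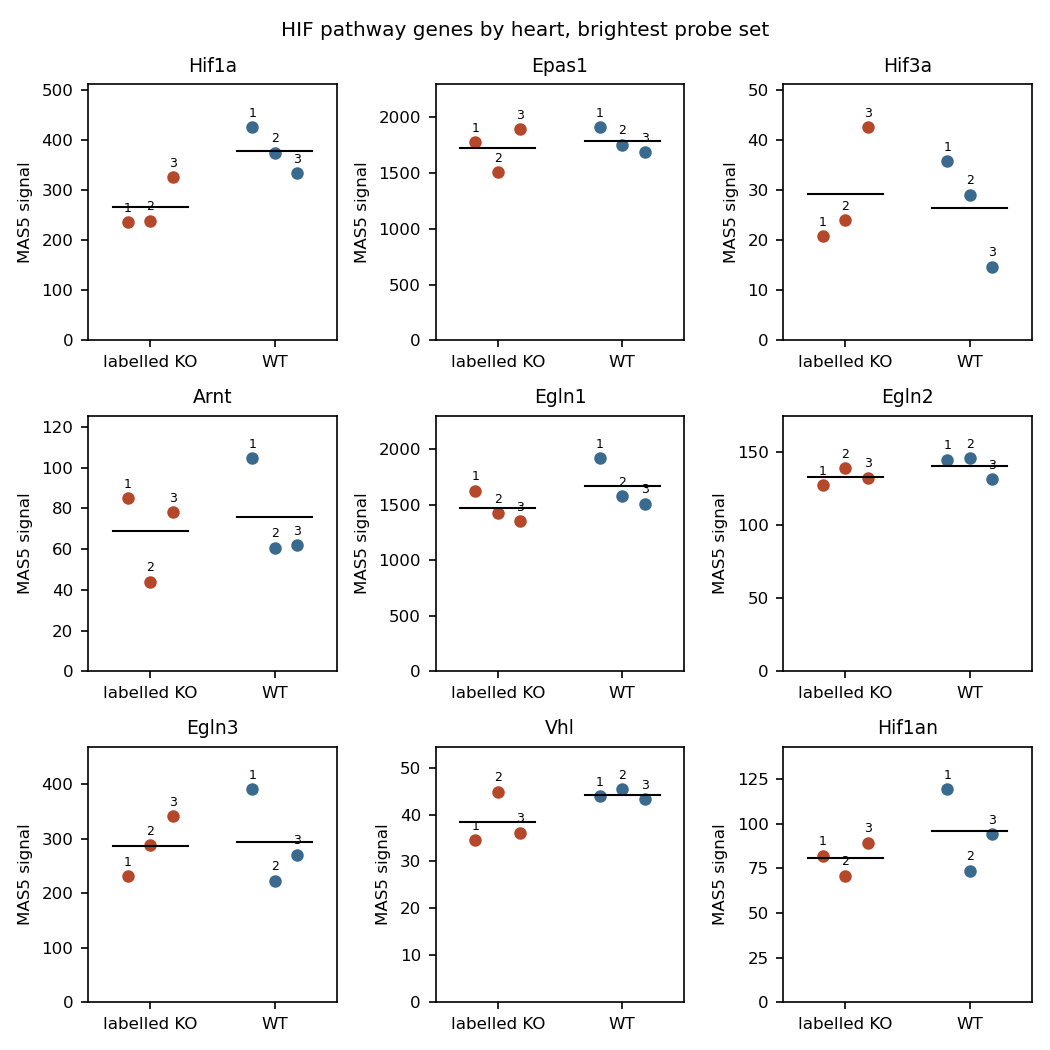
MAS5 signal of the brightest probe set of each of the 9 genes (linear axes from 0), with each heart a numbered point, hearts labelled KO left of WT, and a bar at the mean. The groups separate for Hif1a, at 235.8 to 325.7 in the hearts labelled KO against 333.5 to 425.3 in WT, and overlap for the other 8 genes.

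Hif1a encodes HIF-1α, the α subunit found in nearly all cells. Its brightest probe set, 1427418_a_at, gave 235.8, 238.5 and 325.7 in KO 1 to 3, against 425.3, 374.4 and 333.5 in WT 1 to 3. All hearts labelled KO lay below all WT hearts, with KO 3 close to WT 3. The means were 267 ± 51.1 and 378 ± 46.0 (SD, n = 3 each). The log2 difference was -0.49 (SE 0.165, 95% interval -0.82 to -0.15), with an unadjusted p of 0.00497 and a limma adjusted p of 0.111, and 4.46% of all genes had a smaller p. An exact permutation test over the hearts gave 0.1, two-sided, the smallest p that 3 against 3 allows.

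With quantile normalization Hif1a was at -0.46 and just past the threshold (limma adjusted p = 0.0496). Over the 22 alternatives it ran from -0.63 to -0.32, always below 0, with limma adjusted p from 0.0496 to 0.477. Without the library labelled KO 1 it was -0.41 (limma adjusted p = 0.344), and without WT 1 -0.40 (0.243). With quantile normalization and without KO 1 it was -0.38 (limma adjusted p = 0.0607).

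The probe sets of Hif1a differed in how well they split the groups. Probe set 1416035_at gave 79, 82.3 and 84.3 in KO 1 to 3, against 124.2, 135.3 and 112.9 in WT 1 to 3. These groups lay well apart and varied little within themselves. KO 1, with more Esrra signal than KO 2 and KO 3, was as low as they were. Whether Hif1a follows Esrra was not tested. The log2 difference was -0.52 (SE 0.141), and the limma adjusted p was 0.261 over all 45037 probe sets without the filter. Probe set 1448183_a_at gave 38.9, 62.2 and 76.4 against 74.6, 81.6 and 58.5, and its groups overlapped. The remaining probe set, 1431981_at, lay under the filter, at 15.5 or less in every heart, and its difference was above 0, at 0.26 (SE 0.201). Thus 3 of 3 Hif1a probe sets over the filter had a difference below 0. Over all 9 genes the groups did not overlap in 2 of 21 probe sets over the filter, both of Hif1a, against 14.4% of all probe sets over the filter, so the share was not above the background. In both the hearts labelled KO were the lower ones, as in 8.09% of all those probe sets.

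**Figure D2:**
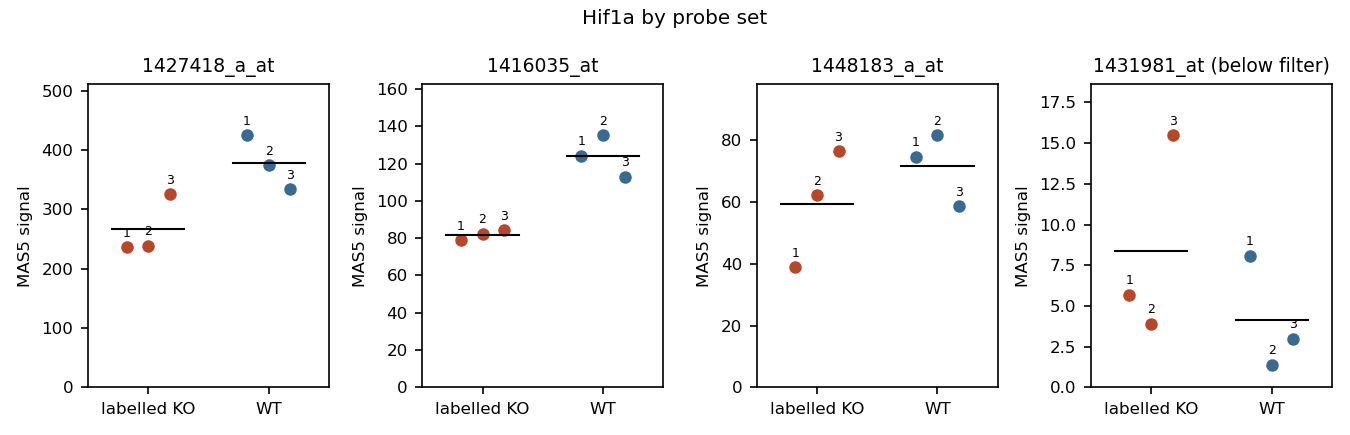
MAS5 signal of the 4 Hif1a probe sets (linear axes from 0, each with its own range), with each heart a numbered point, hearts labelled KO left of WT, and a bar at the mean. In 1416035_at the hearts labelled KO lie at 79 to 84.3 and WT at 112.9 to 135.3, while the groups overlap in 1448183_a_at and in 1431981_at, which lies below the filter.

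Some markers of other cell types moved with the same groups. Of the adipocyte markers 4 of 4 tested rose in the hearts labelled KO, with a summed signal of 318.2 to 1821 against 75.8 to 100.6 in WT. All 6 atrial myocyte markers rose, with sums of 13559.5 to 16182 against 2922 to 9570.2. Of the fibroblast markers 0 of 7 passed, with sums of 5823 to 6574 against 4419 to 5253. For smooth muscle and pericytes 2 of 7 rose, with sums of 6197 to 8103 against 4849.6 to 5774. None of the 8 endothelial markers passed, and their sums overlapped, at 1948 to 2458 against 1767 to 2307. No marker was at 0 in any heart. With quantile normalization 2 of 4 adipocyte, 6 of 6 atrial and 3 of 7 fibroblast markers rose, and without WT 1 the counts were 1, 2 and 1. No smooth muscle and pericyte marker passed in either of these, with 0 of 7 called in each. Their part in the difference of Hif1a, and in those of the pathway genes below, was not tested.

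By the rule for likeness, the 3 tested genes whose log2 values followed Hif1a most closely over the 6 arrays were Dot1l (Pearson r = 0.991), Kdm4b (0.987) and Sybu (0.986). These are descriptions, and the arrays share the differences in brightness. Dot1l, a histone H3 methyltransferase, gave 28.6, 29.9 and 50 in KO 1 to 3, against 68.6, 56.9 and 54.3 in WT 1 to 3. Its groups did not overlap, and its log2 difference of -0.56 did not pass (limma adjusted p = 0.0911). Kdm4b, a histone lysine demethylase that needs oxygen, was at -0.25 and Sybu at -0.38, and neither passed (limma adjusted p = 0.648 and 0.336).

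The other α subunits were not separated by group. Epas1, which encodes HIF-2α and is prominent in endothelium, gave 1777.8, 1510.4 and 1895.2 in KO 1 to 3, against 1912.2, 1754.7 and 1687.2 in WT 1 to 3. KO 3 lay above 2 of the WT hearts, and the spread within each group exceeded the gap between the means. The log2 difference was -0.05 (SE 0.128, 95% interval -0.31 to 0.21, limma adjusted p = 0.929). Its dimmer probe set was at -0.24 (SE 0.181) and also overlapped.

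Hif3a encodes HIF-3α, an α subunit with short splice forms that can oppose the other HIFs. It was dim, at 20.8, 24 and 42.5 in KO 1 to 3, against 35.7, 29 and 14.7 in WT 1 to 3. The lowest heart was WT 3 and the highest KO 3, the groups overlapped, and the log2 difference was 0.09 (SE 0.208, 95% interval -0.33 to 0.51). Only 2 of its 6 probe sets passed the filter, the second with a difference of -0.21 (SE 0.228), and the other 4 stayed at 8.8 or less in every heart. Whether these signals exceed background could not be told, since detection calls were not used here.

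Arnt encodes HIF-1β, which pairs with each α subunit and also with the aryl hydrocarbon receptor. Its brightest probe set gave 84.9, 44 and 78.2 in KO 1 to 3, against 104.7, 60.7 and 62.1 in WT 1 to 3. KO 2 was the lowest heart and WT 1 the highest, and the groups overlapped. The log2 difference was -0.11 (SE 0.192, 95% interval -0.50 to 0.27). Of its 5 probe sets over the filter 2 had differences below 0 and 3 above, from -0.40 to 0.29, so the probe sets gave no common direction. It turned to 0.10 without WT 1 and to 0.12 without KO 2.

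The prolyl hydroxylases were likewise not split by group. Egln1 encodes PHD2, the main oxygen sensor of the family. It gave 1626.2, 1422.9 and 1350.8 in KO 1 to 3, against 1918.1, 1578 and 1509.1 in WT 1 to 3. KO 2 and KO 3 lay below all WT hearts, while KO 1 lay above 2 of them. The log2 difference was -0.18 (SE 0.132, 95% interval -0.45 to 0.085, limma adjusted p = 0.656), and it was below 0 in all 22 alternatives, from -0.26 to -0.077. Its other probe set overlapped, with KO 1 to 3 at 416.8, 528.1 and 627 and WT 1 to 3 at 711.6, 574.1 and 469.2, and a difference of -0.15 (SE 0.174).

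Egln2 encodes PHD1 and has 1 probe set. It was the most even of the 9 genes, at 127.3, 139.1 and 132.5 in KO 1 to 3, against 145, 146 and 131.4 in WT 1 to 3. The log2 difference was -0.07 (SE 0.167, 95% interval -0.41 to 0.26). Egln3 encodes PHD3, whose gene is a strong HIF target in many tissues. It gave 231.3, 288.4 and 341.4 in KO 1 to 3, against 390.7, 222.9 and 270.7 in WT 1 to 3. WT hearts held both the highest and the lowest value, and the difference was -0.02 (SE 0.177, 95% interval -0.37 to 0.34). Its direction turned with quantile normalization (0.012), cyclic loess (0.018) and without KO 1 (0.12). The dimmer Egln3 probe set was at -0.25 (SE 0.186) and overlapped as well.

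Vhl encodes the part of the ubiquitin ligase that binds hydroxylated α subunits. It was dim, at 34.5, 44.9 and 36.1 in KO 1 to 3, against 43.9, 45.4 and 43.2 in WT 1 to 3. KO 2 lay among the WT hearts and the other 2 hearts labelled KO below them, and the log2 difference was -0.15 (SE 0.178, 95% interval -0.51 to 0.21). Hif1an encodes the asparaginyl hydroxylase FIH. It gave 82, 70.9 and 89.4 in KO 1 to 3, against 119.3, 73.6 and 94.2 in WT 1 to 3. WT 1 stood above the other hearts, and the difference was -0.19 (SE 0.177, 95% interval -0.55 to 0.16) with all hearts and -0.043 without WT 1. A dimmer Hif1an probe set lay in the other direction, at 0.19 (SE 0.208).

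**Figure D3:**
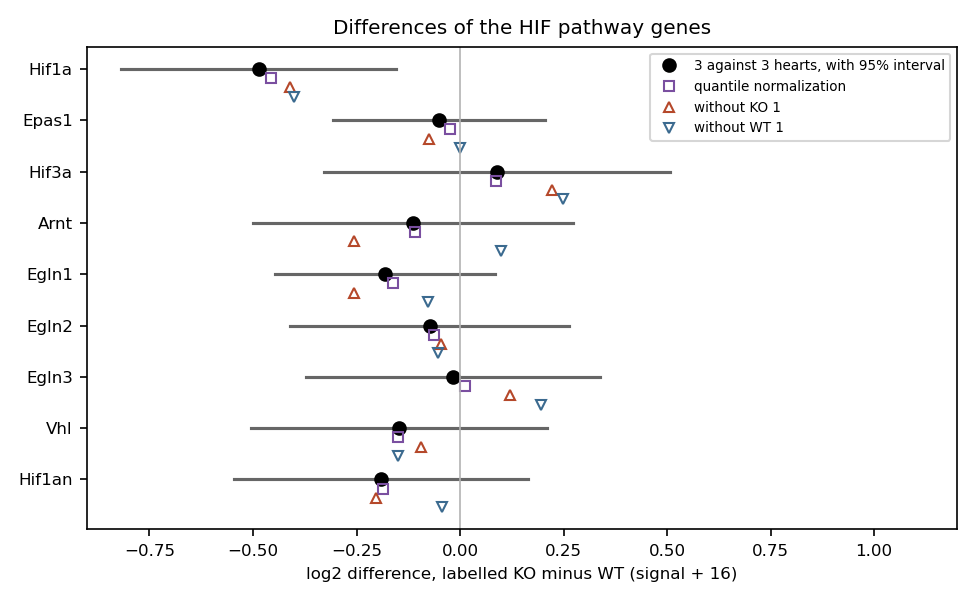
Log2 difference of each of the 9 genes, hearts labelled KO minus WT, on the scale of log2 of signal plus 16. Filled points with bars give the value and its 95% interval over 3 against 3 hearts, and open symbols the value with quantile normalization, without KO 1 and without WT 1. The interval of Hif1a runs from -0.82 to -0.15, and those of the other 8 genes include 0.

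Around these genes, 8 lists of pathway genes held 104 further genes, of which 84 were tested. In the hearts labelled KO 6 of the 84 rose and 3 fell, so 10.7% were called, against 2.97% of all genes tested. In all genes 1.78% were called higher and 1.18% lower. The lists were drawn up with earlier results of these data known, and nothing particular to them is read from these shares. Their median difference was 0.035, against -0.028 over all genes. Of the 5 lists of HIF responsive genes, 4 of 53 genes tested rose and 3 fell. The lists did not move in 1 direction, since 27 of these 53 had differences above 0.

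**Figure D4:**
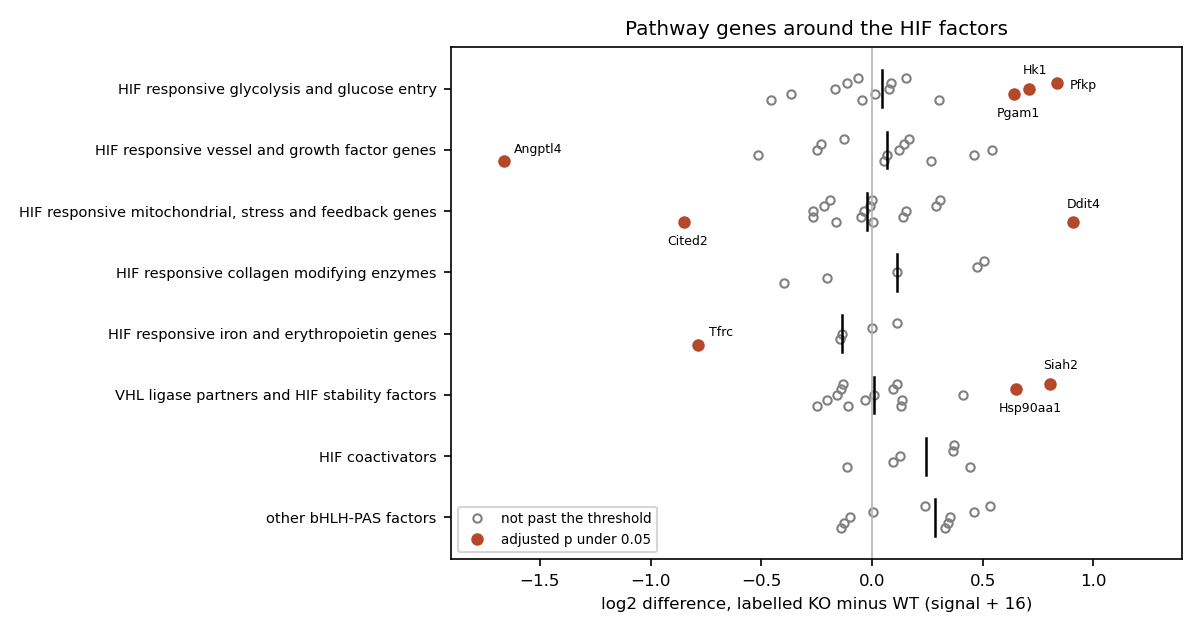
Log2 difference, hearts labelled KO minus WT, of the 84 tested genes in 8 pathway lists, with 1 point a gene, filled where the adjusted p was under 0.05, and a bar at the median of each list. The 9 filled genes lie on both sides of 0, from -1.66 for Angptl4 to 0.91 for Ddit4, and the 3 filled glycolysis genes lie above 0.

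Among proteins that act on HIF stability, 2 of 15 tested genes rose and 0 fell. Siah2 encodes a ubiquitin ligase that marks EGLN3 for destruction. It gave 77.2, 50.7 and 63.3 in KO 1 to 3, against 45, 23.3 and 22.7 in WT 1 to 3. All hearts labelled KO lay above all WT hearts in both of its probe sets, and the log2 difference was 0.80 (SE 0.190, limma adjusted p = 0.00751). Hsp90aa1 encodes a chaperone that binds and protects HIF-1α among many other proteins. It gave 933.2, 960 and 1045.2 in KO 1 to 3, against 749.3, 507.5 and 621.6 in WT 1 to 3. The groups did not overlap in any of its 3 probe sets over the filter. The difference was 0.65 (SE 0.149, limma adjusted p = 0.00553), and it missed the threshold without KO 3 (0.0537) and without WT 2 (0.0968). Elob, Eloc and Cul2, the tested partners of VHL in its ligase, were at -0.13, 0.011 and -0.16 and did not pass.

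Of the mitochondrial, stress and feedback genes, 1 of 16 tested rose and 1 fell. Cited2 encodes a protein that HIF induces and that competes with HIF-1α for EP300 and CREBBP. It gave 226.6, 139.9 and 124.3 in KO 1 to 3, against 316.5, 315.9 and 265.3 in WT 1 to 3. KO 1, with the most Esrra signal of the hearts labelled KO, was nearest to WT. The same heart was not nearest to WT in every pathway gene past the threshold. Whether Cited2 follows Esrra was not tested. Cited2 fell by 0.85 on the log2 scale (log2 difference -0.85, SE 0.178, limma adjusted p = 0.00192), and its other probe set gave 86.3, 76.4 and 51.1 in KO 1 to 3, against 132, 117.6 and 120.1 in WT. The call was lost without WT 1 (-0.81, limma adjusted p = 0.101) and was kept without KO 1. Ddit4, a stress-induced inhibitor of mTORC1, gave 215.7, 135.2 and 268.1 in KO 1 to 3, against 138.8, 98.2 and 68.9 in WT 1 to 3. It rose, by 0.91 on the log2 scale (SE 0.196, limma adjusted p = 0.00272), although KO 2 lay just below WT 1, and missed the threshold without WT 1 (1.13, limma adjusted p = 0.0588). Bnip3 and Higd1a, mitochondrial proteins of hypoxia, were at -0.036 and -0.0018 and did not pass, and were named after their values were seen.

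In glycolysis and glucose entry 3 of 14 tested genes rose and 0 fell. With quantile normalization 1 also fell, Hk2, which is described further on. Pfkp, a phosphofructokinase, gave 242.9, 423.2 and 518 in KO 1 to 3, against 216.8, 188.1 and 208.5 in WT 1 to 3. Hk1, a hexokinase, gave 546.9, 750.3 and 1010.1, against 513.9, 422.1 and 420.8. Pgam1, a phosphoglycerate mutase, gave 260.1, 268.3 and 352.6, against 215.2, 165.3 and 166.5. In each of these genes KO 1 lay closest to WT and KO 3 farthest. Without KO 3 none of the 3 passed, with log2 differences of 0.62 for Pfkp, 0.49 for Hk1 and 0.51 for Pgam1 (limma adjusted p = 0.0970, 0.244 and 0.290). Without WT 1 the calls of Pfkp (0.88, limma adjusted p = 0.125) and Hk1 (0.80, 0.0904) were lost. The call of Pgam1 was lost without WT 2 (0.58, limma adjusted p = 0.104) and without WT 3 (0.58, 0.109). Ldha and Pdk1, which steer pyruvate away from the mitochondria and are textbook HIF targets, were at -0.043 and -0.062 (chosen after their values were seen).

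The remaining lists held few calls. Of 13 vessel and growth factor genes 0 rose and 1 fell, Angptl4, with 34.7, 69.2 and 36 in KO 1 to 3, against 130, 209 and 201.4 in WT 1 to 3. Vegfa, the main vessel growth factor that HIF induces, was at 0.07 (SE 0.182) and did not pass. Of 5 iron genes 1 fell, Tfrc, the transferrin receptor. Its signals of 194.9, 514.6 and 764.5 in KO 1 to 3 overlapped those of 1032.8, 510.9 and 792.7 in WT 1 to 3. The Tfrc difference of -0.79 (SE 0.232, limma adjusted p = 0.0491) shrank to -0.25 without KO 1 and did not pass in 15 of 22 alternatives.

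Among the collagen modifying enzymes 0 of 5 tested genes passed. In several alternatives 1 did, P4ha1, among them quantile normalization, median centring, cyclic loess and array weights. P4ha1, a collagen prolyl hydroxylase, gave 128.4, 129.8 and 123 in KO 1 to 3, against 91.4, 75.8 and 87.2 in WT 1 to 3 (log2 difference 0.51, SE 0.169, limma adjusted p = 0.10). Lox, which crosslinks collagen, was at 0.48 (SE 0.183, limma adjusted p = 0.189). Of 6 HIF coactivators 0 passed, against 1 with quantile normalization and with cyclic loess, Crebbp. Crebbp gave 274.4, 264 and 290 in KO 1 to 3, against 230.8, 207.3 and 195.6 in WT 1 to 3 (log2 difference 0.36, SE 0.163, limma adjusted p = 0.314). Jmjd6 was at 0.44 (SE 0.178). Of 10 tested genes on the list of other bHLH-PAS factors, which also takes in the Per clock genes, 0 passed. Per2, a clock protein, was at 0.53 (SE 0.198), and Ahrr, the repressor of the aryl hydrocarbon receptor, at 0.46 (SE 0.211).

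**Figure D5:**
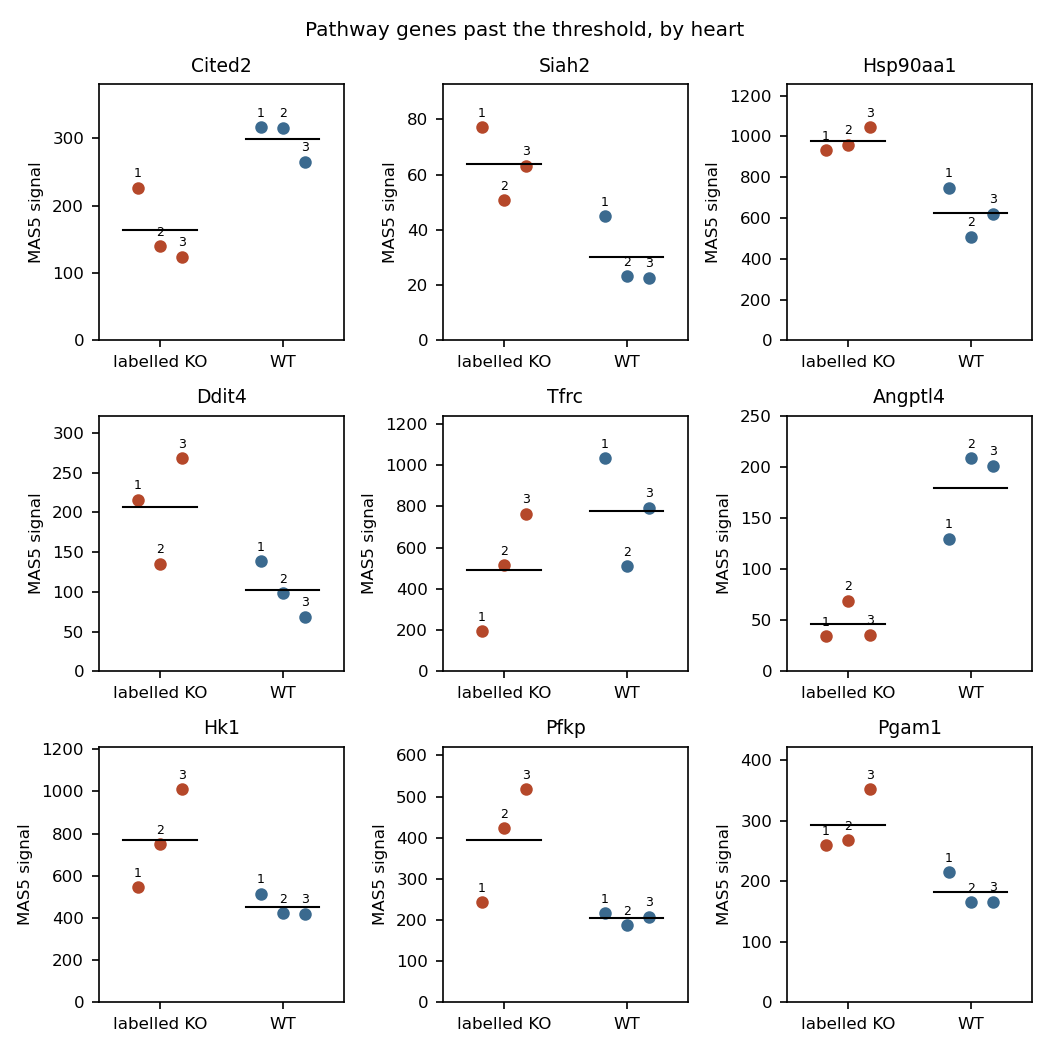
MAS5 signal of the 9 pathway genes past the threshold (linear axes from 0), with each heart a numbered point, hearts labelled KO left of WT, and a bar at the mean. The groups separate for Cited2, Siah2, Hsp90aa1, Angptl4, Hk1, Pfkp and Pgam1, and overlap for Ddit4 and Tfrc.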

How the data were processed

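The authors deposited 1 linear signal intensity for each probe set and heart. MAS5 is named in the submitters' processing notes, and its scaling target was not given in the sources used here. Detection calls were not used. The 6 arrays were used as deposited, with no further scaling. Of 45099 probe sets 62 are controls. Probe sets with 1 gene symbol in the platform table (34945) were named, and those with several (932) or none (9160) were not.

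Values were taken as log2(signal + 16), on which fold changes of dim genes are understated. Probe sets whose mean lay under the 40th percentile (a signal of 8.17) were left out, and the brightest remaining one stood for its gene. The comparison used limma 3.58.1 in R 4.3.3 (lmFit, then eBayes with the trend option) and Benjamini-Hochberg adjustment. Dimmer probe sets were read from the same fit over all 45037, without the filter. With 45.6 prior degrees of freedom, a gene's own spread weighs little in its SE. The same fit was tried on simulated arrays with normal noise at the average spread for each brightness. It recovered 94 of 100 genes with a true log2 difference of 1, and 22 of 100 at 0.5, with 5 false calls. Most differences of 0.5, near the size seen for Hif1a, were thus missed in the simulation. It gave genes of equal brightness the same spread and held no differences between whole arrays. It therefore does not give the chance of finding a change in Hif1a itself. The p-values set each difference against a spread between hearts that is pooled largely over genes of similar brightness.

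The genes and lists were chosen with earlier results of these data known. Named genes were the 9 genes, Esrra, the list genes past the threshold (otherwise the 2 of smallest p), and the 3 genes most like Hif1a; others are marked in the text. Genes such as Vegfa, Elob, Eloc and Cul2 are named as defining members of their lists, after their values were seen. The alternatives changed the scaling, the pseudocount, the filter, the probe set rule or the variance model, weighted the arrays, blocked on replicate number, or left out hearts. Leaving out KO 1 and WT 1 together, and leaving out KO 1 with quantile normalization, were added after seeing the data.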

Additional observations from a re-analysis of the deposited data

How the results depend on the processing

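None of the 9 genes passed in 21 of 22 alternatives; with quantile normalization 1 did, Hif1a. No probe set of the 9 genes passed in any alternative run on probe sets. Hif1a, Egln1, Egln2, Vhl and Hif1an stayed below 0 in all 22, with Hif1an at -7.346e-05 for the mean of its probe sets. Egln3 turned with quantile normalization (0.012), cyclic loess (0.018), array weights (0.13), without KO 1 and WT 1 together (0.33) and with quantile normalization without KO 1 (0.15), and leaving out 1 heart gave -0.19 to 0.20. Epas1 turned with cyclic loess (0.0038), and leaving out 1 heart gave -0.12 to 0.042. Hif3a turned with the mean of its probe sets (-0.058) and lay from -0.13 to 0.25 with 1 heart left out, and Arnt from -0.26 to 0.12. The count over all genes was 384, and 66 with no filter, 171 with no intensity trend, 610 with array weights (434 higher and 176 lower, against 231 and 153), 598 without KO 1 and WT 1 together, 995 with quantile normalization without KO 1, and 127 (without WT 1) to 509 (without KO 1) with 1 heart left out; without KO 3 it was 201. Of the pathway genes 9 passed, against 1 with no filter, 5 with no shared-probe sets, 2 with no intensity trend, and 4 (without WT 1) to 9 with 1 heart left out; without KO 3 it was 5. Esrra passed at -2.58, and with robust eBayes it was at -2.58 and did not pass (limma adjusted p = 0.307); with 1 heart left out it ran from -3.39 to -2.12, and did not pass without WT 1 (limma adjusted p = 0.0675). The cause of these changes was not tested.

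Over all genes, same-numbered hearts did not deviate together (correlations of 0.027, -0.016 and 0.029), and the main test treated the hearts as unpaired. These correlations cannot show whether some hearts shared a litter. With the replicate number as a block 412 genes passed, 0 of the 9 genes and 9 of the pathway genes, and no call of a named gene changed. Dim signals, such as those of Hif3a and Vhl, could not be told from background.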

Other observations

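Other genes near the HIF pathway had separated groups without passing the test over all genes, and 2 were chosen after their values were seen. Groups did not overlap in 16.2% of all genes. Further list genes also separated without passing, in both directions, among them Pfkl lower and Lox higher in the hearts labelled KO. Hk2, the muscle hexokinase, gave 781.8, 828.3 and 700 in KO 1 to 3, against 1293.8, 883.8 and 1040.8 in WT 1 to 3. Its log2 difference was -0.46 (SE 0.147, limma adjusted p = 0.0833), opposite to that of Hk1. Hk2 passed in several alternatives, among them quantile normalization, median centring, cyclic loess, robust eBayes and a stricter filter. Apln, which encodes the peptide apelin, gave 50.8, 57.4 and 69.4 in KO 1 to 3, against 130.6, 74.8 and 75.7 in WT 1 to 3 (log2 difference -0.51, SE 0.184, limma adjusted p = 0.136). WT 1 stood far above the other WT hearts for Apln.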
